A study of Mus musculus with 58 samples.

Results

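The 14 hippocampus arrays described here come from mice labelled TG, of the APP/PS1 model of Alzheimer's disease pathology, and they differed among themselves in how strongly microglial genes were expressed. They are 14 of the 58 arrays of the series, which covers the frontal cortex and hippocampus of 30 mice of 8 months on a C57BL/6J background, male and female, TG and wild-type (WT). APP/PS1 mice carry transgenes for human amyloid precursor protein and presenilin 1 with disease mutations. The labels name no promoter for them, and the WT mice are labelled without a transgene. The male mice are numbered 38 to 53 and the female mice 1 to 14, so sex and cohort of animals cannot be told apart. Each array was given a score, the mean log2 value of Cst7, Clec7a, Trem2, Tyrobp and Cd68, which was then centred within the male (8 arrays) and female (6 arrays) cohort. Mouse 7, a female labelled TG, was kept out of the set by the same rule. The arrays used for comparison were 15 of WT hippocampus (8 male, 7 female) and the 14 of the frontal cortex of the same TG mice.

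Microglia are the resident phagocytes of the brain, and they gather around amyloid plaques in mice of this kind. There they take up lipids and amyloid through the receptor Trem2, which signals through the adaptor Tyrobp, and they switch on genes for lysosomal breakdown, lipid handling and chemokines while holding less of the genes typical of resting microglia. Astrocytes near plaques raise intermediate filaments such as Gfap. The arrays measured RNA of dissected tissue, so more cells of a type and more RNA per cell cannot be told apart in any value below.

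The score of every array of the set lay above those of the controls. This separation is a description, since the rule had left out mouse 7, labelled TG, whose score of 5.03 was within the WT range. In the 15 WT hippocampi the score lay between 4.78 and 5.09 log2 units. Among TG males it rose from 6.81 in mouse 41 through 6.85 (mouse 44), 7.21 (mouse 45), 7.25 (mouse 43), 7.89 (mouse 46), 8.35 (mouse 50) and 8.42 (mouse 53) to 8.73 in mouse 40. Among TG females it was 6.14 in mouse 8, 7.21 in mouse 10, 8.13 in mouse 12, 8.39 in mouse 9, 8.88 in mouse 11 and 9.71 in mouse 4. The female scores thus covered a range of 3.56 log2 units and the male scores 1.92. Cst7, an inhibitor of lysosomal cathepsins, ran from 5.67 in mouse 8 to 10.21 in mouse 4, against 2.89 to 3.55 in WT. Clec7a, a receptor for beta-glucans, ran from 4.50 to 9.14 in the same 2 mice, against 3.30 to 3.90 in WT. The 5 genes followed each other closely, with pairwise correlations of centred values between 0.954 and 0.986. The order of the arrays was chosen by these measured values of the 5 genes, which are therefore given as a description with no test. The upper 7 arrays by centred score are mice 46, 50, 53, 40, 9, 11 and 4, and the lower 7 are mice 8, 10, 12, 41, 44, 45 and 43. At the boundary, mouse 46 had a centred score of 0.20 and mouse 12 one of 0.053.

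**Figure D1:**
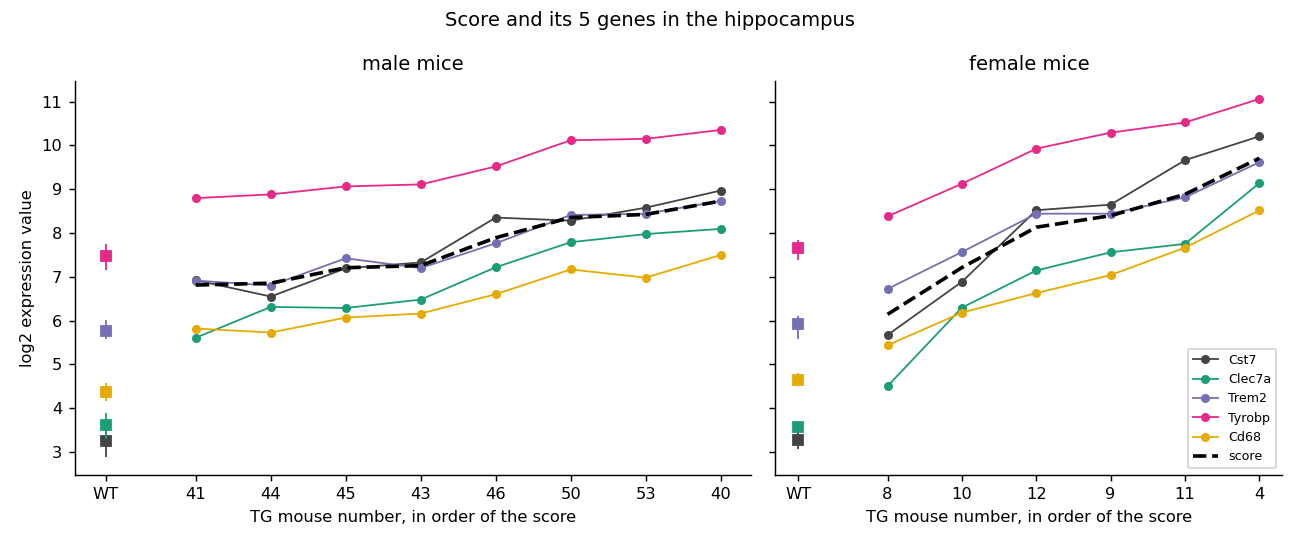
The log2 expression value of the 5 score genes (coloured points and lines) and their mean, the score (dashed), in each TG hippocampus array, with male mice on the left and female mice on the right and mice in order of the score. Squares with bars on the far left give the mean and the range of WT arrays; the score climbs from 6.81 to 8.73 in males and from 6.14 to 9.71 in females.

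Several arrays stood apart in their tissue content. Mouse 4, which had the highest score, had a mean over 16 hippocampal field genes of 5.82, while the other 13 arrays lay between 6.84 and 7.29 and the TG frontal cortex arrays between 5.30 and 5.56. Its mean of myelin genes was 9.09, above the 8.05 to 8.72 of the others. The mean of choroid plexus genes was 6.65 to 7.59 in the 4 upper male arrays and 3.99, 4.26, 4.28 and 7.50 in the 4 lower male arrays. In females it stayed between 3.70 and 4.56. Results are therefore given with and without mouse 4, and the choroid plexus and hippocampal field means were also tried as covariates. Mouse 7 had a score of 5.03 and a Thy1 value of 10.92, both within the WT range, while Thy1 was 11.90 to 12.38 in the 14 arrays. The promoter of Thy1, a neuronal surface protein, is used to drive transgenes in several mouse lines, and Thy1 was 1.20 log2 units (SE 0.05) higher in the 14 TG than in the 15 WT arrays (limma, adjusted p = 1.12e-16). Mouse 7 was left out of this and every later comparison of TG with WT. Their SEs and p-values therefore omit an array labelled TG that lay at WT level for Thy1 and the score. Precision throughout is limited by how many arrays there are.

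How the rest of the transcriptome moved with the score was asked with a slope for each gene, the change in its log2 value per log2 unit of score, fitted with limma over the 14 arrays with a term for cohort. At a Benjamini-Hochberg adjusted p under 0.05, 1083 of 17211 genes (6.29%) were related to the score: 650 were higher with the score (3.78%) and 433 were lower (2.52%). The median slope over all genes was -0.01. Rises were steeper than falls, since 66 called genes had a slope of at least 0.5 and 1 had a slope of -0.5 or less. Mouse 4 and mouse 8, at the ends of the female range, carried much of the count. Without mouse 4, 450 genes passed (2.61%; 340 higher, 1.98%, and 110 lower, 0.639%), and 415 (2.41%) passed both with and without it in the same direction, 330 rises (1.92%) and 85 falls (0.494%). Without mouse 8, 577 passed. In the 15 WT hippocampi, where the score spans little, 0 genes passed in limma; 1385 had an unadjusted p under 0.05, against 3605 in TG. The male arrays alone gave 151 genes (0.877%) and the female arrays alone 214 (1.24%). No gene's slope differed between female and male arrays after adjustment in limma (0 called, 1816 at an unadjusted p under 0.05). In cohort-centred values the upper 7 and the lower 7 arrays did not overlap for 117 genes with the upper 7 higher (0.68%) and for 52 with the upper 7 lower (0.302%). These arrays were split by a measured value, so that division was given no test.

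The genes most like the score were microglial and lysosomal. By correlation of centred values over the 14 arrays, the 10 closest were Ctsz, Ly86, Csf1r, C1qa, Ctsd, C1qc, Ctss, Lair1, Fcgr3 and Fcer1g, with r from 0.986 to 0.996. Ctsz encodes the lysosomal protease cathepsin Z. It ran from 7.47 to 8.81 (median 8.09) in the lower 7 arrays, from 8.65 to 10.01 (median 9.08) in the upper 7, and from 6.81 to 7.41 (median 7.16) in WT. After centring, each upper array was above each lower array. Its slope was 0.72 (SE 0.03, adjusted p = 1.48e-10). C1qc, a chain of the complement starter C1q, ran from 7.97 to 9.25 (median 8.34) in the lower 7 and from 8.87 to 10.35 (median 9.51) in the upper 7, against 7.30 to 7.87 in WT, with a slope of 0.72 (SE 0.03). Csf1r, the receptor that microglia need to survive, ran from 8.40 to 9.14 (median 8.67) and from 8.96 to 9.95 (median 9.38), against 7.93 to 8.36 in WT, with a slope of 0.44 (SE 0.02). All 10 genes passed the threshold in each leave-one-out fit and in each setting of the closing section but those added later.

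Promoter windows from RefSeq (GRCm38.p6, 250 bases before to 50 after the start site) of C1qc, Ctss and Ctsd, which moved with the score, and of the score gene Clec7a are shown, because motifs of microglial or lysosomal regulators were found in them. The capitals mark the match. In C1qc (chr4:136892865-136893164, minus strand) and Ctss (chr3:95526536-95526835, plus strand) it is GAGGAAGT, read as ACTTCCTC on the strand shown, a core bound by PU.1, the lineage factor of microglia encoded by Spi1. In Clec7a (chr6:129472730-129473029, minus strand) it is the EICE composite element, on the opposite strand, that PU.1 binds with Irf8 or Irf4. In Ctsd (chr7:142387778-142388077, minus strand) it is TCACGTGA, the CLEAR element of lysosomal genes.
C1qc: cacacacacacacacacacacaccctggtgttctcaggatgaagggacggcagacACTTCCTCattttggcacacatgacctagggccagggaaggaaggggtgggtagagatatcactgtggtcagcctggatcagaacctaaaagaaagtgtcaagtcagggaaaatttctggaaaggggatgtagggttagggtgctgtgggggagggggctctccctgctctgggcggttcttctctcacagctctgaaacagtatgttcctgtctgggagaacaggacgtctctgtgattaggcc
Ctss: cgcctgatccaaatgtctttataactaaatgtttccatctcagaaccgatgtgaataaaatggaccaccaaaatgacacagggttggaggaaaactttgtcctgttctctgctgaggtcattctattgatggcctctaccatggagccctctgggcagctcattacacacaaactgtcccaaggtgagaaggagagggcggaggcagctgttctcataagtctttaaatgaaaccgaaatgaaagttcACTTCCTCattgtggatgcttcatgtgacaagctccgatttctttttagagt
Clec7a: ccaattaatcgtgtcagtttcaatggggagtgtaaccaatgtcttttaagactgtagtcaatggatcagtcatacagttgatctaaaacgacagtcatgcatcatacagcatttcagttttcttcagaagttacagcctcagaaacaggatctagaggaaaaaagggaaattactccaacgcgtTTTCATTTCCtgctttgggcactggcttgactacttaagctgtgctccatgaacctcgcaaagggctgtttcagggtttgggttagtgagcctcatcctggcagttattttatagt
Ctsd: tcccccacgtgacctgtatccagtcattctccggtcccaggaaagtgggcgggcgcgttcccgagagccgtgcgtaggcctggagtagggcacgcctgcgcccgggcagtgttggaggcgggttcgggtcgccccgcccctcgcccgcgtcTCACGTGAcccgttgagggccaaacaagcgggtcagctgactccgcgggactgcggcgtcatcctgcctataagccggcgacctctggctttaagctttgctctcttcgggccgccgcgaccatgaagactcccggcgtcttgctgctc

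The matches begin 195 bases before the start site in C1qc, 2 in Ctss, 66 in Clec7a and 99 in Ctsd. The match in Ctss thus runs across the start site. Of the 15 genes searched (the 5 score genes and the 10 most like the score), 12 had a window, and 5 of them held at least 1 of these motifs on either strand, the other being Cd68. The PU.1 motif was in 3.202% of all 32851 promoter windows, in 2.875% of windows of measured genes, and in 8.788% of the 330 windows of genes that were higher both with and without mouse 4. It was in 3.571% of the 84 windows of genes lower in both. The composite element was in 2.404% of windows of measured genes and 2.424% of windows of the rising genes, and the CLEAR element in 1.382% and 1.515%. The motifs do not overlap in the windows printed, and a match is a description of the letters only.

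**Figure D2:**
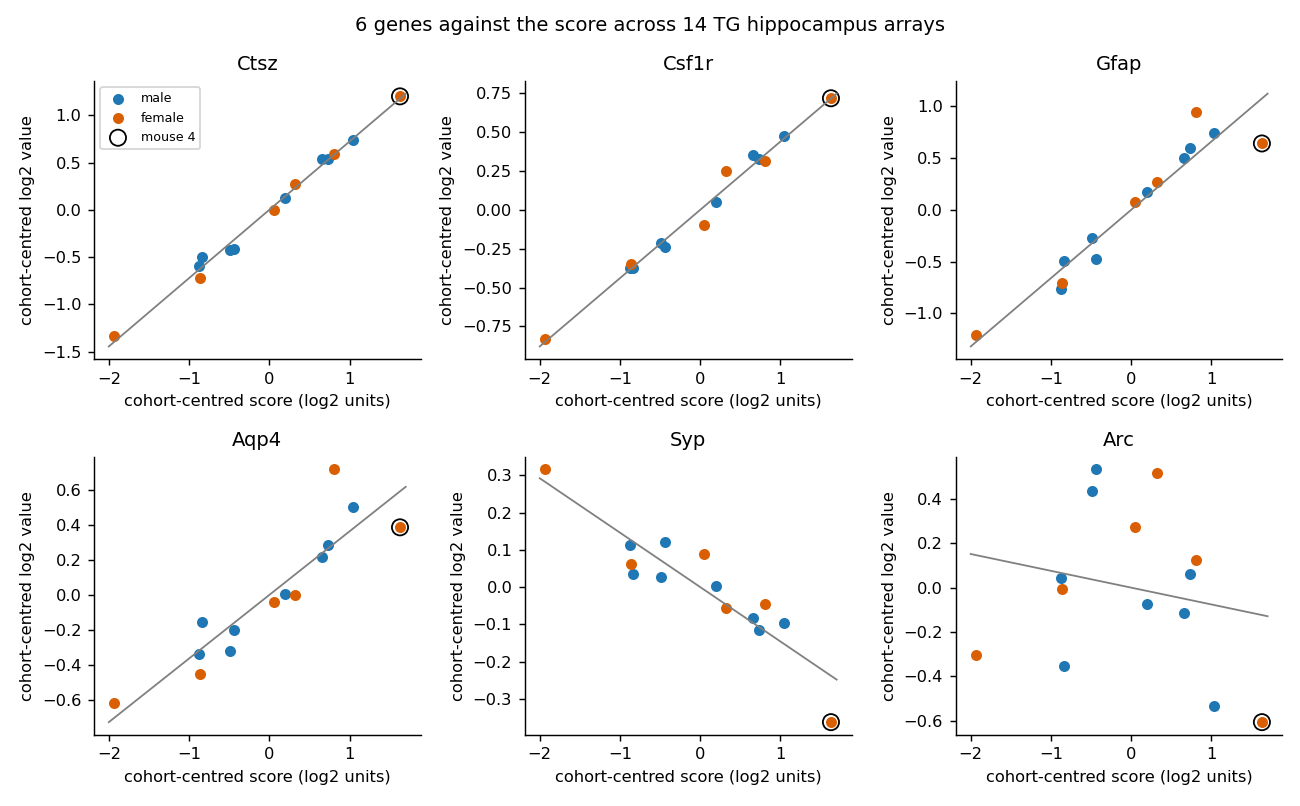
Cohort-centred log2 values of 6 genes (vertical axes) against the cohort-centred score (horizontal axes, log2 units) in 14 TG hippocampus arrays, male in blue and female in orange, with mouse 4 ringed and the fitted slope as a line. Ctsz, Csf1r, Gfap and Aqp4 climb with the score, Syp falls, and Arc, an activity-induced gene, shows no clear order (adjusted p = 0.73).

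Across 11 lists of microglial and immune genes, 148 distinct genes were tested, of which 108 were higher with the score, 83 of them also without mouse 4, and 0 were lower. Beside these and the later list counts of the same fit, the shares over all genes were 3.78% higher and 2.52% lower. With and without mouse 4 they were 1.92% and 0.494%. The lists and the score share a subject, so these counts describe how far the pattern extends. Among 27 measured genes of plaque-associated microglia outside the score, 21 were higher (16 also without mouse 4), with a median slope of 0.37. Cd52, a small surface glycoprotein of leukocytes, ran from 5.30 to 6.96 (median 5.75) in the lower 7 arrays and from 6.77 to 8.34 (median 7.12) in the upper 7, against 3.67 to 4.54 in WT. Its slope was 0.93 (SE 0.06, adjusted p = 2.43e-08), so most of a log2 unit of Cd52 accompanied each unit of score. Lyz2, the lysozyme of macrophages, ran from 6.53 to 8.00 (median 6.996) in the lower 7 and from 7.82 to 9.40 (median 8.47) in the upper 7, against 4.72 to 5.95 in WT, with a slope of 0.88 (SE 0.05). The chemokines Ccl6 and Ccl3 had slopes of 0.90 (SE 0.04) and 0.86 (SE 0.08). Ch25h, which makes 25-hydroxycholesterol, had a slope of 0.74 (SE 0.08), and Lgals3bp, a secreted galectin ligand, one of 0.82 (SE 0.09). Slopes were smaller for Itgax (0.43), which encodes an integrin of plaque microglia, Axl (0.41), a receptor for dying cells, and Gpnmb (0.48).

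Lpl, the lipase that frees fatty acids from lipoproteins, is a gene of the plaque list that differed between TG and WT without a slope past the threshold. It ran from 7.41 to 7.78 (median 7.71) in the lower 7 arrays and from 7.55 to 8.06 (median 7.76) in the upper 7, against 6.86 to 7.58 in WT. It was 0.51 (SE 0.06) higher in TG than in WT (adjusted p = 4.09e-06), while its slope was 0.08 (SE 0.04, adjusted p = 0.252). In the arrays of lowest centred score, mice 8, 41 and 10, Lpl was 7.62, 7.68 and 7.41. In those of highest centred score, mice 11, 40 and 4, it was 7.76, 8.06 and 7.71. Without mouse 4 its slope was 0.11 (SE 0.04, adjusted p = 0.255). A slope that misses the threshold does not show that Lpl was flat along the score. Apoe, the main lipid carrier of the brain, had a slope of 0.11 (SE 0.03, adjusted p = 0.038), and 0.09 without mouse 4 (adjusted p = 0.21).

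Genes typical of resting microglia were also higher with the score. Of 16 measured homeostatic genes outside the score, 13 were higher (11 also without mouse 4) and 0 were lower, with a median slope of 0.38. Cx3cr1, the receptor for the neuronal chemokine fractalkine, ran from 6.47 to 7.06 (median 6.59) in the lower 7 arrays and from 6.83 to 8.17 (median 7.29) in the upper 7, against 5.87 to 6.56 in WT, with a slope of 0.46 (SE 0.04). P2ry12, a sensor of ADP on microglial processes, ran from 7.63 to 8.11 (median 7.72) and from 7.85 to 8.77 (median 8.42), with WT arrays at 7.20 to 7.80 and a slope of 0.31 (SE 0.04). Its lower 7 arrays overlapped the WT range. Tmem119, a surface marker of microglia, had a slope of 0.35 (SE 0.06), Fcrls, an Fc receptor-like protein, one of 0.58 (SE 0.04) and Siglech, a sialic acid receptor, one of 0.54 (SE 0.04). For each unit of score the homeostatic genes named here moved by less than Cd52 or Lyz2 and in the same direction. That contrast did not extend to the lists. The median slope was 0.38 for homeostatic and 0.37 for plaque-associated genes, and 0.40 and 0.29 without mouse 4. Whether the lists differed was not tested.

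Receptors and their signalling partners followed. In the list of Trem2 and Tyrobp signalling, which here leaves out both score genes, 7 of 13 were higher (5 also without mouse 4), with a median slope of 0.21. Ptpn6, a phosphatase that inhibitory receptors recruit, had a slope of 0.61 (SE 0.07), and the adaptors Fyb and Blnk had slopes of 0.43 (SE 0.04) and 0.43 (SE 0.03). Inpp5d, a lipid phosphatase that restrains this pathway, had a slope of 0.21 (SE 0.04, adjusted p = 0.00361), and without mouse 8 its slope was 0.17 (adjusted p = 0.0664). Syk, the kinase that Tyrobp recruits, was dim at a TG mean of 3.23, with a slope of 0.05 (adjusted p = 0.38). Of 15 pan-microglial and myeloid genes, 14 were higher with and without mouse 4, among them the pore protein Mpeg1 (0.80, SE 0.04), the Toll-like receptor partner Ly86 (0.75, SE 0.03), Aif1 (0.64, SE 0.05), which encodes the marker Iba1, and the integrin chain Itgam (0.64, SE 0.07).

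Complement and Fc receptor genes had the highest median slope of the lists, 0.67, with 9 of 11 higher with and without mouse 4. The inhibitory Fc receptor Fcgr2b had a slope of 0.83 (SE 0.05), Fcgr3 0.65 (SE 0.03), the shared signalling chain Fcer1g 0.68 (SE 0.04), C1qa 0.67 (SE 0.03) and the integrin chain Itgb2, part of complement receptor 3, 0.75 (SE 0.04). Of 20 lysosomal genes, 17 were higher (16 also without mouse 4), with a median slope of 0.36. They include the proteases Ctsd (0.58, SE 0.03) and Ctss (0.51, SE 0.03), progranulin Grn (0.42, SE 0.03) and the hexosaminidase Hexa (0.39, SE 0.03), of which Grn and Hexa were chosen after their values were seen. Of 5 NADPH oxidase genes, 4 were higher and 2 held without mouse 4. The membrane subunit Cyba had a slope of 0.61 (SE 0.04), the cytosolic subunit Ncf1 0.42 (SE 0.04) and the catalytic subunit Cybb 0.15 (SE 0.03, adjusted p = 0.00964), with 0.12 without mouse 4 (adjusted p = 0.0849).

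Of 17 chemokine and cytokine genes, 10 were higher (7 also without mouse 4). The rises included chemokines and receptors, such as Cxcl10 (0.43), Ccl12 (0.35) and Il10rb (0.32, SE 0.04), a chain of the interleukin 10 receptor. The classical inflammatory cytokines Il1b and Tnf, at TG means of 3.41 and 3.38 near the bottom of the scale, had slopes of -0.00 and -0.03 (adjusted p = 0.98 and 0.76). Antigen presentation counted 10 of 13 genes higher, of which 5 held without mouse 4. The class I genes H2-K1 (0.62, SE 0.07) and B2m (0.62, SE 0.04) and the immunoproteasome subunit Psmb8 (0.65, SE 0.07) held in both fits. The class II genes Cd74 and H2-Aa had slopes of 0.57 and 0.59 (adjusted p = 0.033 and 0.042), and of 0.29 and 0.35 without mouse 4 (adjusted p = 0.21 and 0.27).

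Of 13 interferon-response genes, 9 were higher and 4 held without mouse 4. Ifi27l2a, induced by type I interferon, had the steepest slope of any gene outside the score, 1.03 (SE 0.16, adjusted p = 0.000815). It ran from 3.18 to 6.25 (median 3.59) in the lower 7 arrays and from 4.16 to 6.95 (median 5.47) in the upper 7, against 2.98 to 3.53 in WT. The lower 7 arrays reached far into the upper 7, in contrast to Ctsz, and its correlation with the score was 0.86. Ifitm3, a membrane protein that blocks viral entry, had a slope of 0.60 (SE 0.08), and Trim30a, an interferon-induced ligase, 0.55 (SE 0.06). Among 9 microglial transcription factors, 4 were higher and 2 held without mouse 4. Irf8, a factor of the myeloid lineage, had a slope of 0.68 (SE 0.04, adjusted p = 3.76e-08), and Cebpa 0.22 (SE 0.04, adjusted p = 0.0062), with 0.20 without mouse 8 (adjusted p = 0.0794). Spi1, the gene of PU.1, had a slope of 0.15 (SE 0.05, adjusted p = 0.11) and was dim, at a TG mean of 3.69.

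**Figure D3:**
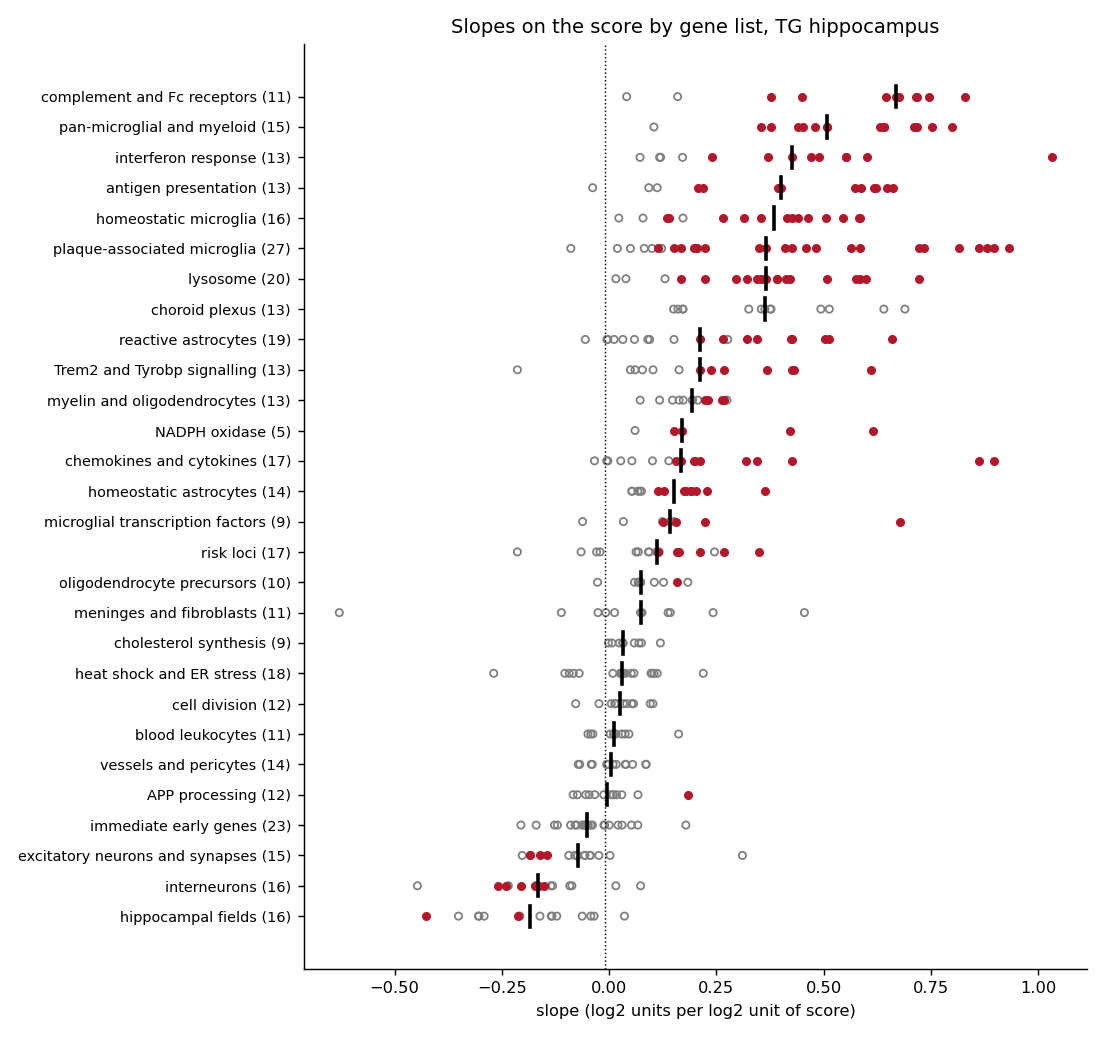
Slope on the score, in log2 units per log2 unit of score, of each tested member of the 28 gene lists, with the number tested in brackets; filled red points passed an adjusted p of 0.05, open grey points did not, and the black bar is the list's median. The dotted line is the median over all genes, -0.01; microglial and immune lists lie to its right, and interneuron and hippocampal field lists have the lowest medians, -0.17 and -0.18.

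No marker of blood leukocytes or dividing cells passed the threshold along the score. Of 11 blood leukocyte genes 0 passed, with a median slope of 0.01, and their mean was 3.13 to 3.40 in the 14 arrays, near the bottom of the scale. S100a8, of neutrophils, and Cd3e, of T cells, had slopes of 0.01 and -0.04. The largest slope of the list was 0.16. S100a9, also of neutrophils, was 4.455 in mouse 4, which had the highest score, and 3.18 to 3.64 in the other arrays. The flat slopes therefore do not cover every neutrophil marker in mouse 4. Of 12 genes of cell division 0 passed, with a median slope of 0.02. Top2a, which untangles DNA in dividing cells, had a slope of 0.10 (SE 0.03, adjusted p = 0.0882).

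Astrocyte genes were higher with the score as well. Of 19 reactive astrocyte genes 9 were higher (7 also without mouse 4), with a median slope of 0.21. Gfap, the intermediate filament of reactive astrocytes, ran from 7.43 to 8.75 (median 7.72) in the lower 7 arrays and from 8.36 to 9.62 (median 8.93) in the upper 7, against 6.66 to 7.15 in WT. Its slope was 0.66 (SE 0.05, adjusted p = 1.05e-06), and 0.76 (SE 0.04) without mouse 4, whose Gfap value was below that of mouse 11. Vim, a second filament protein, had a slope of 0.51 (SE 0.06), and Serpina3n, a secreted protease inhibitor, one of 0.50 (SE 0.09). Lcn2 and Ptx3, markers of astrocytes after inflammation and ischaemia, had slopes of -0.01 and -0.00 (adjusted p = 0.97 and 0.98). Of 14 homeostatic astrocyte genes 9 were higher, 2 of them also without mouse 4. The water channel Aqp4 ran from 8.00 to 8.63 (median 8.13) in the lower 7 and from 8.34 to 9.39 (median 8.67) in the upper 7, against 7.63 to 8.33 in WT, with a slope of 0.36 (SE 0.05, adjusted p = 0.000145). The glutamate transporter Slc1a3 had a slope of 0.13 (SE 0.03, adjusted p = 0.00667), and 0.10 without mouse 4 (adjusted p = 0.0618), while the transporter Slc1a2 had one of 0.07 (adjusted p = 0.38).

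Among oligodendrocyte genes 4 of 13 myelin genes were higher and 1, the tight-junction gene Cldn11 (0.27, SE 0.05), held without mouse 4, whose myelin mean was the highest of the set. Mobp and Ermn, which encode myelin proteins, had slopes of 0.22 (SE 0.05) and 0.23 (SE 0.06). Without mouse 4 these were 0.17 (SE 0.05, adjusted p = 0.137) and 0.17 (SE 0.06, adjusted p = 0.159). Of 10 precursor genes 1 passed, near the 6.29% of all genes. It was Olig1 (0.16, SE 0.04), which did not pass without mouse 4 (0.11, adjusted p = 0.181). Of 14 vessel and pericyte genes 0 passed, with a median slope of 0.00.

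Of 13 choroid plexus genes 0 passed, with a median slope of 0.36, which was 1.36 in males and -0.06 in females. Kcnj13, a potassium channel of the choroid epithelium, had a slope of 2.21 in males and -0.08 in females, with an overall SE of 0.49, and neither these slopes (adjusted p = 0.261 and 0.79) nor their difference (adjusted p = 0.42) passed. Of 11 meningeal genes 0 passed, with a median slope of 0.07. With the choroid plexus mean as a covariate, 1288 genes passed, 994 of them among the 1083. Its part in the slopes of other genes was not tested beyond that fit.

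Neuronal genes were among those lower with the score, and leaving out mouse 4 removed many of these calls. The 12 steepest falls past the threshold were Crym, Rem2, Rasd1, Fibcd1, Trhr, Cpne7, Trpc4, Slc9a2, Rps4l, Tenm1, Hap1 and Cpne2, with slopes from -0.51 to -0.35. In all 12, mouse 4 was below every other array of the set. In WT, 12 of the 85 falls that held without mouse 4 (14.1%) were higher in hippocampus than in frontal cortex by at least 0.5, against 3.89% of all genes and 7.88% of the 330 rises that held, and 6 (7.06%) were lower by at least 0.5, against 4.01% of all genes. Crym, a thyroid hormone binding protein of pyramidal neurons, was 7.63 in mouse 4 and 9.91 to 10.65 in the other 13 arrays. Its slope was -0.51 (SE 0.13, adjusted p = 0.0264), and -0.22 (SE 0.04, adjusted p = 0.00412) without mouse 4, and it did not pass without mouse 8 (adjusted p = 0.0917) or mouse 10 (adjusted p = 0.0547). Fibcd1, a marker of field CA1, was 4.67 in mouse 4 and 6.55 to 7.47 elsewhere, and its slope fell in size from -0.43 (adjusted p = 0.0459) to -0.17 (adjusted p = 0.181) without it. Of the 12, only Crym, Trpc4, Rps4l and Hap1 passed without mouse 4. By contrast all of the 12 steepest rises passed without it. Trpc4, a cation channel, ran from 6.33 to 7.01 (median 6.47) in the lower 7 and from 5.06 to 6.33 (median 6.06) in the upper 7, against 6.05 to 6.70 in WT, with slopes of -0.38 (SE 0.06) and, without mouse 4, -0.26 (SE 0.05). The other 13 arrays reached from 5.93 to 7.01, below and above the WT range.

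**Figure D4:**
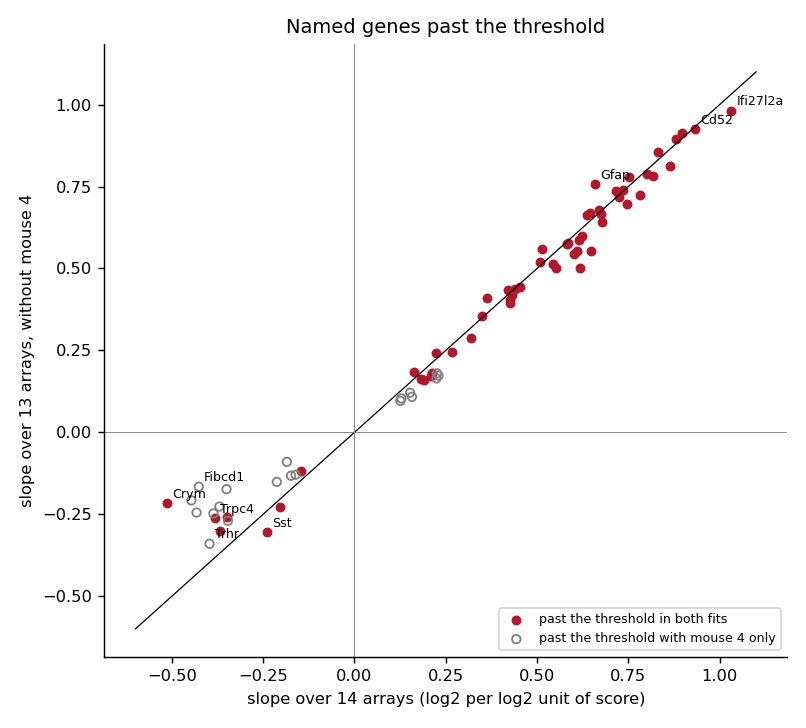
Slopes of the named genes past the threshold over 14 arrays (horizontal) and over 13 arrays without mouse 4 (vertical), both in log2 units per log2 unit of score, with the line of equal slopes; filled points passed in both fits and open points with mouse 4 only. Rises lie near the line, while falls such as Crym (-0.51 and -0.22) and Fibcd1 (-0.43 and -0.17) lie nearer to 0 without mouse 4.

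Among 16 interneuron genes 6 were lower with the score, 3 of them also without mouse 4, and 0 were higher; the median slope was -0.17. Sst, the peptide somatostatin of dendrite-targeting interneurons, ran from 9.08 to 10.19 (median 9.67) in the lower 7 arrays and from 9.14 to 9.68 (median 9.59) in the upper 7, against 9.64 to 10.21 in WT. The groups overlapped, since mouse 12 of the lower 7 had the lowest value. Its slope was -0.24 (SE 0.06, adjusted p = 0.0193), -0.31 (SE 0.06, adjusted p = 0.00962) without mouse 4, and -0.18 (adjusted p = 0.192) without mouse 8. The serotonin receptor channel Htr3a had a slope of -0.20 (SE 0.04, adjusted p = 0.00867), and -0.23 without mouse 4 (adjusted p = 0.0211). Gad1, which makes GABA, had a slope of -0.17 (SE 0.03, adjusted p = 0.00651), and -0.13 (adjusted p = 0.0629) without mouse 4. Pvalb and Vip, of other interneuron classes, had slopes of 0.07 and 0.02 with mouse 4 included (adjusted p = 0.7 and 0.96). Mouse 4 had the highest value of both genes. Pvalb was 8.64 in mouse 4 and 7.19 to 8.06 in the other arrays, and Vip 8.41 and 6.85 to 7.88. These slopes therefore do not show that the classes of Pvalb and Vip were spared.

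Of 15 genes of excitatory neurons and synapses 3 were lower with the score and 1 held without mouse 4. That gene was Syp, which encodes the synaptic vesicle protein synaptophysin. It ran from 10.05 to 10.31 (median 10.12) in the lower 7 and from 9.63 to 10.09 (median 9.97) in the upper 7, against 10.02 to 10.39 in WT. Its slope was -0.15 (SE 0.03, adjusted p = 0.00291), and -0.12 (SE 0.03, adjusted p = 0.0296) without mouse 4. TG and WT means of Syp differed by -0.09 (SE 0.04, adjusted p = 0.256). Camk2a and Snap25 had slopes of -0.02 and -0.04 (adjusted p = 0.77 and 0.3). Of 16 hippocampal field genes, Fibcd1 and Lypd1 were lower and neither held without mouse 4, and the median slope went from -0.18 to -0.04.

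Activity-induced genes were set against both the genotype and the score. Of 23 immediate early genes 19 were lower in TG than in WT (median -0.42), in a comparison where 1164 of 17216 genes passed (6.76%), 707 higher (4.11%) and 457 lower (2.65%). With equal array medians that comparison gave 593 higher and 1159 lower. Along the score 0 of the 23 passed over 14 arrays, with a median slope of -0.05. Without mouse 4, 1 of the 23 passed, in a fit where 2.61% of all genes did. It was Btg2, an inhibitor of cell growth (slope 0.16, adjusted p = 0.0417). Fos, a transcription factor induced by neuronal firing, ran from 5.96 to 7.34 (median 6.44) in the lower 7 arrays and from 6.52 to 6.94 (median 6.78) in the upper 7, against 5.67 to 8.69 (median 7.94) in WT. TG minus WT was -1.04 (SE 0.20, adjusted p = 0.00095), and its slope was 0.18 (SE 0.07, adjusted p = 0.143), with 0.29 in females alone (adjusted p = 0.0151) and -0.05 in males alone (adjusted p = 0.879); the slopes of the cohorts did not pass as different (adjusted p = 0.419). Junb showed -0.57 (SE 0.11, adjusted p = 0.000874) for TG minus WT and a slope of -0.13 (SE 0.05, adjusted p = 0.149), which was -0.06 without mouse 4 (adjusted p = 0.596). Of 9 genes of cholesterol synthesis, 6 were higher in TG and 0 passed along the score. Hmgcs1, an early enzyme of the pathway, was 0.21 (SE 0.04) higher in TG (adjusted p = 0.00259) with a slope of 0.06 (SE 0.04, adjusted p = 0.376). Of 18 heat shock and ER stress genes 0 passed along the score.

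Of 12 genes of APP processing 1 passed, near the 6.29% of all genes. It was Adam17, a protease that sheds Trem2 and APP from the cell surface. Adam17 ran from 5.26 to 5.65 (median 5.47) in the lower 7 and from 5.56 to 6.07 (median 5.67) in the upper 7, against 5.18 to 5.46 in WT, with a slope of 0.18 (SE 0.03, adjusted p = 0.00171). App had a slope of -0.05 (SE 0.02, adjusted p = 0.186), and Thy1 one of 0.08 (SE 0.04, adjusted p = 0.285), with 0.22 in males (adjusted p = 0.0338), 0.01 in females and 0.14 without mouse 4 (adjusted p = 0.0863); the difference between females and males had an adjusted p of 0.419. The beta-secretase gene Bace1 had a slope of -0.07 (SE 0.02, adjusted p = 0.0751). Of 17 genes at Alzheimer's disease risk loci outside the score, 6 were higher, 3 of them also without mouse 4: Abi3 (0.35, SE 0.04), Inpp5d and Ms4a6d (0.16, SE 0.03). Abi3, an actin regulator of microglia, ran from 4.30 to 4.90 (median 4.67) in the lower 7 and from 4.87 to 5.63 (median 5.15) in the upper 7. Mef2c and Ptk2b, which neurons express, had slopes of 0.25 and -0.21 (adjusted p = 0.13 and 0.12), and of 0.05 and -0.05 without mouse 4 (adjusted p = 0.67 and 0.6). Mef2c was 9.925 in mouse 4 and 8.15 to 8.58 in the other arrays, and Ptk2b 7.35 in mouse 4 and 8.48 to 8.90 in the others.

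Whether the order of the mice was shared by both regions was asked with frontal cortex arrays, which the score had not used. The same score in the cortex was higher in every mouse, from 8.60 in mouse 8 to 10.25 in mouse 11. Across 14 TG mice, cohort-centred scores of both regions correlated with Pearson's r = 0.885 (permutation within cohorts, p = 3e-04, adjusted p = 7e-04 over 7 versions) and Spearman's rho = 0.864 (permutation p = 0.00051). Without mouse 4 r was 0.875, and without the 2 mice farthest from the median hippocampal score, mice 8 and 4, it was 0.793 (permutation p = 0.00316). Within the 8 males r was 0.713 (exact permutation p = 0.0465) and rho 0.667 (exact permutation p = 0.0831). Within the 6 females r was 0.961 (exact permutation p = 0.00417) and rho 0.943 (exact permutation p = 0.0167). Whether the correlation differed between the cohorts was not tested, and mouse 46, of the upper 7, had the second lowest cortical score of the males, 9.11.

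**Figure D5:**
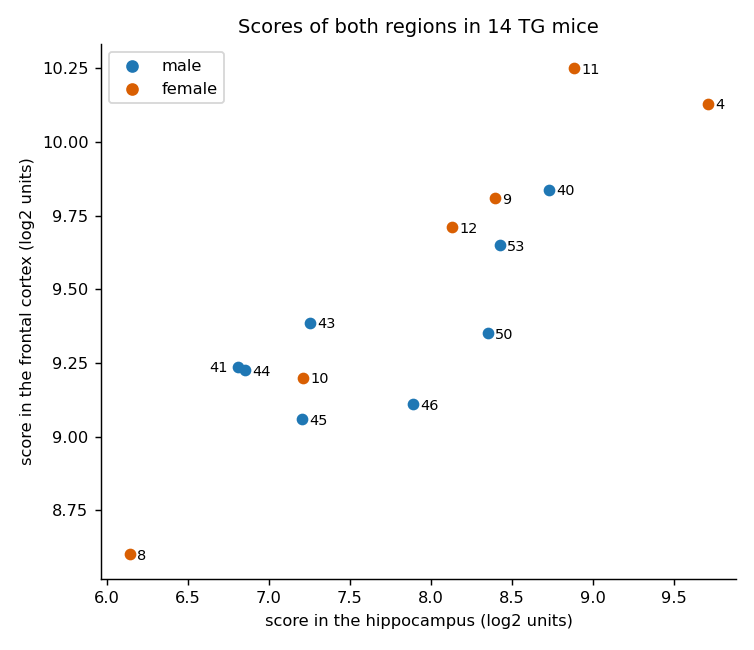
The microglial score, in log2 units and before centring, in the hippocampus (horizontal) and frontal cortex (vertical) of 14 TG mice, male in blue and female in orange, each labelled with its mouse number. Mouse 8 is lowest in both regions, and mice 11 and 4 are at the upper end of both.

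Cortical genes were then set against the hippocampal score of the same mouse. Of 17211 genes, 142 passed in limma (0.825%), 138 of them higher, and without mouse 4, 70 passed. Of the lists, 14 of 20 lysosomal, 12 of 15 pan-microglial and 7 of 11 complement and Fc receptor genes were higher in the cortex with the hippocampal score, and 0 were lower. Ctsz had a cortical slope of 0.35 on the hippocampal score (adjusted p = 0.00206), C1qa one of 0.35 (adjusted p = 0.00206) and Gfap one of 0.47 (adjusted p = 0.00206). With the cortical score as a covariate 2 genes passed, and neither was among the 142. In the cortex of mouse 4 the means of meningeal and blood leukocyte genes were 6.33 and 5.25, against 4.76 to 5.40 and 3.18 to 3.99 in the other 13 cortex arrays.

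Slopes were then compared between regions, each on its own score. In limma 5 genes had a different slope (0.0291%, with 1014 at an unadjusted p under 0.05), all less steep in the hippocampus. With the mouse as a fixed replicate block 0 passed, and with the mouse as a random block 5 did. Hcar2, a receptor for ketone bodies and niacin, had a slope of 0.23 in the hippocampus and 1.39 in the cortex, a difference of -1.16 (SE 0.15, adjusted p = 0.000674). In the hippocampus Hcar2 was dim, from 3.27 in mouse 41 to 4.29 in mouse 4. Ifi30, a lysosomal thiol reductase, had slopes of 0.12 and 1.03 (difference -0.90, SE 0.16, adjusted p = 0.0322), Mamdc2, an extracellular protein, 0.64 and 1.499 (difference -0.86, SE 0.16, adjusted p = 0.0331), Lpl 0.08 and 0.64 (difference -0.56, SE 0.10, adjusted p = 0.0322) and the chemokine Ccl9 0.21 and 0.73 (difference -0.52, SE 0.09, adjusted p = 0.0322). Other microglial genes had slopes of 0.72 and 0.86 for Ctsz (difference -0.13, SE 0.06, adjusted p = 0.802) and 0.93 and 0.91 for Cd52 (difference 0.02, SE 0.16, adjusted p = 0.993). A p that misses the threshold does not show that these slopes were equal.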

How the data were processed

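RNA of 58 mouse brain samples was measured on Affymetrix arrays. The authors deposited 1 log2 value for each probe set, made with RMA under R 3.2.2 according to the submitters' processing notes. The sources used here do not give the chip definition. Of 17856 probe sets, 17216 carry 1 gene symbol and were analysed, and 640 carry none. Values ran from 2.28 to 13.6, with array medians between 4.73 and 4.85, and were used without further scaling. Dim genes were kept, since the table holds no detection calls.

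Slopes of log2 values on the score were fitted with limma 3.58.1 (R 4.3.3, lmFit and eBayes) with a cohort term. Tests were two-sided and p-values were adjusted (Benjamini-Hochberg, threshold 0.05) across the 17211 genes outside the score. Correlations of scores used 100000 permutations within cohorts. The scripts were tested on simulated data. Errors are standard errors.

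The set, its score and the 28 gene lists (449 memberships, 402 measured) were chosen with earlier results of these data known, so their counts are descriptions. Named genes are the score genes, Thy1, App, the 12 steepest rises and falls, the 10 genes most like the score, up to 3 members of smallest p per list and the 5 region differences; further list members were chosen after their values were seen. Both regions came from the same animals, per the labels' protocols, so mouse numbers pair them: deviations of a mouse's arrays from the fit correlated from -0.02 to 0.41 (median 0.14), over 0.1 in 8 of 14 mice. Replicates are mice; p-values measure the spread between them. Alternatives were other scores, scalings, filters, covariates, priors, array weights, single cohorts and leaving out each array.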

Additional observations from a re-analysis of the deposited data

Results flagged for a closer look

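In the cohorts of 8 and 6 TG hippocampus arrays, 88 pairs of a measure and a cohort were examined for a sample far from the others, and 6 stood out by Dixon's criterion, which flags about 1 group in 20 by chance. In females 4 of them were mouse 4, at 7.63 for Crym, 4.67 for Fibcd1, 3.86 for Rem2 and 5.82 for the mean of the hippocampal field genes, each the lowest of its cohort. In males mouse 44 was the highest for Cpne2, at 6.22, and mouse 40 the lowest for Cpne7, at 7.99. No female value of mouse 8, at the other end of the score, was set apart in this way.

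Slopes on the score differed between hippocampus and frontal cortex for Hcar2 (-1.16), Ifi30 (-0.902), Mamdc2 (-0.862), Lpl (-0.558) and Ccl9 (-0.517), as hippocampal minus cortical slope, in the fit without a mouse block. The frontal cortex score covered a narrower range, 8.60 to 10.25, than the hippocampal score, 6.14 to 9.71 and lay over its upper end. The part of this in the differences was not tested.

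Among the 640 probe sets with no gene symbol, which the report does not use, 41 (6.41%) were related to the score in TG hippocampus at an adjusted p under 0.05 in limma, and 0 in WT hippocampus.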

How the results depend on the processing

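Of 110 named genes tested, 74 were related to the score, and 36 of these, such as Ctsz, C1qa, Gfap, Vim and Irf8, passed in every setting but those added later. No named slope past the threshold reversed. The count of 1083 genes fell to 450 without mouse 4, 577 without mouse 8, 265 without both, 488 with mouse 7 added, 574 with array weights, 475 with the hippocampal field mean as a covariate, 151 in males and 214 in females, and rose to 2201 with Thy1 as a covariate. Leaving out each array gave 450 to 1247. Chosen after the data were seen, fits without mouse 4 gave 311 with the choroid plexus covariate, 363 with no cohort term and 77 in females only. Under the other settings it stayed between 1097 and 1294. The brighter part of the genes, those at or above the median of mean values, gave 1095. Of these 539 were higher and 556 lower, in place of 650 and 433. They came from a smaller set of genes, so they are a larger share than the 6.29% of the main fit. A score from 5 homeostatic microglial genes gave 1294, of which 991 were among the 1083. Cortical genes on the hippocampal score numbered 142, with 70 without mouse 4 and 2 with the cortical score as covariate. Of the 5 region differences 0 passed with the mouse as a fixed replicate block, while 8 passed without mouse 4 (4 of them shared) and 2 among brighter genes. TG against WT gave 1164 genes, and 1752 with equal array medians. WT slopes and female minus male slopes stayed at 0 genes in every alternative run. The correlation of scores ran from 0.713 (males) to 0.961 (females). The cause of these shifts was not tested. Few arrays, dim genes near the bottom of the scale and the confounding of sex with cohort limit what can be read from the slopes.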

Other observations

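Of the 330 genes higher with the score both with and without mouse 4, 235 belong to none of the lists. The steepest of them, chosen after their values were seen, include Cd48, a ligand of lymphocyte and macrophage receptors, with a slope of 0.67 (SE 0.05), the calcium-binding Anxa3 (0.66, SE 0.08) and S100a6 (0.63, SE 0.07), and Gbp2, an interferon-induced GTPase (0.62, SE 0.10). Slamf9, a receptor of myeloid cells, had a slope of 0.59 (SE 0.06), and Lcp1, an actin bundler of leukocytes, one of 0.56 (SE 0.06). Genes that astrocytes are known to express were also found there. Pdpn, a membrane glycoprotein, had a slope of 0.45 (SE 0.04), and the urea transporter Slc14a1 one of 0.46 (SE 0.04). All of these passed in limma with and without mouse 4 and were higher in TG than in WT at an adjusted p under 0.05.

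Of the 85 genes lower in both fits, 81 belong to none of the lists. Il34, which encodes a ligand of Csf1r that neurons make, had a slope of -0.25 (SE 0.03, adjusted p = 0.000157), and -0.22 without mouse 4 (adjusted p = 0.0021), whereas Csf1r itself was higher with the score. Il34 differed between TG and WT by -0.07 (adjusted p = 0.737). Scg2, a granule protein of neurons, had a slope of -0.18 (SE 0.03) and was lower in TG, by -0.32 for TG minus WT (SE 0.06). Nos1, the neuronal nitric oxide synthase, had a slope of -0.22 (SE 0.04). The vesicle genes Rab3b and Rab3c had slopes of -0.23 (SE 0.07) and -0.22 (SE 0.04). These genes were also chosen after their values were seen, and the slopes of Scg2, Nos1 and Rab3c were closer to 0 without mouse 4.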
